A study of Mus musculus with 8 samples.

Results

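The 37 genes described here encode nuclear subunits of 4 of the respiratory chain's complexes and its mobile electron carrier. They comprise 4 genes of complex II (Sdha, Sdhb, Sdhc and Sdhd), 9 of complex III (Uqcrb, Uqcrc1, Uqcrc2, Uqcrfs1, Uqcrh, Uqcrq, Uqcr10, Uqcr11 and Cyc1), cytochrome c (Cycs), 11 of complex IV (Cox4i1, Cox5a, Cox5b, Cox6a1, Cox6b1, Cox6c, Cox7a2, Cox7a2l, Cox7b, Cox7c and Cox8a) and 12 of complex V (Atp5a1, Atp5b, Atp5c1, Atp5d, Atp5e, Atp5g1, Atp5g2, Atp5g3, Atp5h, Atp5j2, Atp5k and Atp5l). They were taken by symbol, under the older names of the ATP synthase genes, and each matched 1 Ensembl gene among the 54838 genes of the count tables. The 37 lie on 16 chromosomes, none of them chromosome 16, so the duplication carried by the mutant mice does not include them. All 37 passed the filter on low counts and were tested.

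The libraries came from submandibular glands of male mice: 4 wild-type libraries (WT, strain C57BL/6J) and 4 libraries of Dp16, the strain B6.129S7-Dp(16Lipi-Zbtb21)1Yey/J, which carries an extra copy of the chromosome 16 segment from Lipi to Zbtb21 and is used as a model of Down syndrome. Ages are not given in the labels, and no treatment or other allele is named for either group. Whole-gland RNA was sequenced, so fewer cells of a type and less RNA per cell cannot be told apart. Nothing in the labels says that the 4 libraries of a group came from 4 animals, and p-values then measure only the spread between these libraries, which may be technical.

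Complex II, succinate dehydrogenase, oxidises succinate in the citric acid cycle and hands the electrons to ubiquinone. Complex III moves them from ubiquinol to cytochrome c, complex IV moves them from cytochrome c to oxygen, and complex V, the ATP synthase, lets the protons pumped on the way flow back and makes ATP. Complex II is built from nuclear genes alone, whereas complexes III, IV and V also hold subunits made from mitochondrial DNA. In salivary glands the striated and granular ducts, which move ions against a gradient, are rich in mitochondria.

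Reads assigned to genes ranged from 90790542 to 115729892 per library. Values below are TMM-scaled CPM, read counts set to a common library size, and log2 fold changes are Dp16 minus WT from edgeR's quasi-likelihood fit with Benjamini-Hochberg adjustment over all genes tested. Of the 19358 genes tested, 121 were called at an adjusted p below 0.05 (0.625%), 91 higher and 30 lower in Dp16, and the median log2 fold change of all genes was 0.01. Reads that overlapped no counted feature made up 14.98 ± 0.965% of each WT library (SD, n = 4) and 19.8 ± 1.16% of each Dp16 library (SD, n = 4; two-sided exact permutation p = 0.0286, the smallest that 4 against 4 allows). The part of that difference, and of the markers of other cell types given further on, in the results was not tested.

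The nuclear genes of complexes II to V stood lower in Dp16 than in WT almost throughout, but none of them passed edgeR's test at an adjusted p below 0.05. Of the 37, 36 had a negative log2 fold change, against 48.9% of all genes tested, and Cox7a2l had the only positive one. The median log2 fold change over the 37 was -0.34 (fold 0.791), with a range from -0.64 (Cyc1) to 0.02 (Cox7a2l). Complex medians were -0.27 for II, -0.31 for III, -0.38 for IV and -0.34 for V, and Cycs had -0.39. Whether the complexes differ was not tested, and the median SE of a single gene was 0.135.

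With edgeR, 0 of the 37 genes were called lower at an adjusted p below 0.05, against 0.155% of all genes tested, and 0 were called higher, against 0.47%. At an unadjusted p below 0.05 edgeR put 19 of the 37 lower (11.9% of all genes) and 0 higher (12.7% of all genes). At an adjusted p below 0.10, 5 of the 37 were lower (2.9% of all genes): Sdhb, Cyc1, Cox5a, Atp5d and Atp5e. DESeq2 called 11 of the 37 lower (4.33% of the genes it tested) and limma-voom with quality weights called 1, Cox5a (0.77%), while neither called any of the 37 higher (5.82% of all genes with DESeq2 and 1.28% with limma-voom). In 11 of the 37 every Dp16 library lay below every WT library, which held for 6.96% of all genes in that direction: Sdhb, Uqcr11, Cyc1, Cox4i1, Cox5a, Cox6a1, Cox7a2, Atp5d, Atp5e, Atp5g2 and Atp5j2. In 0 of the 37 did every Dp16 library lie above every WT library (7.11% of all genes).

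**Figure D1:**
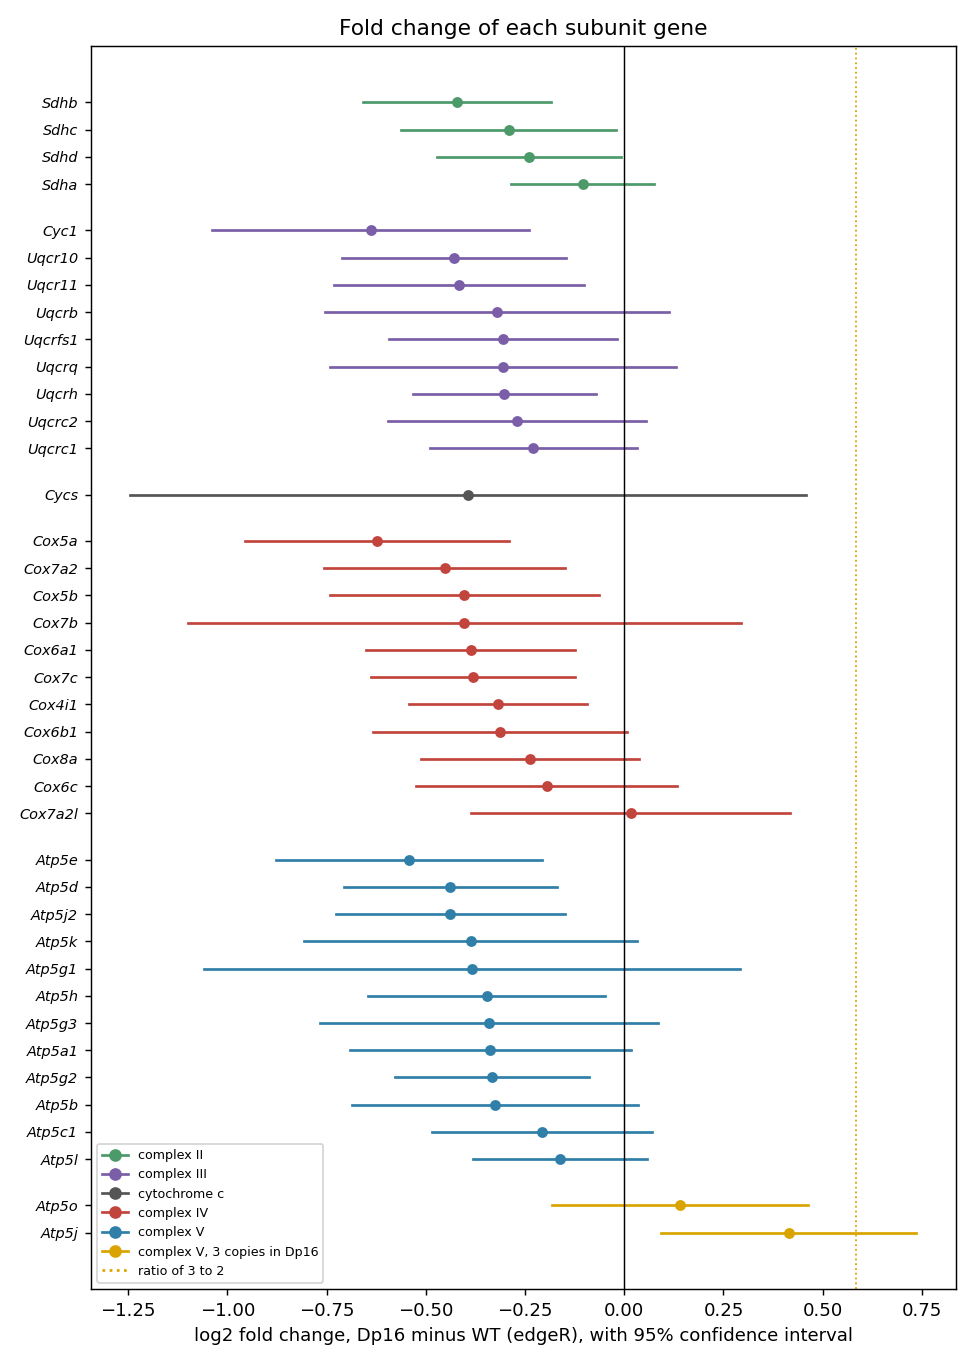
Log2 fold change (Dp16 minus WT, horizontal axis) of each of the 37 genes, with its 95% confidence interval, grouped by complex, with Atp5o and Atp5j, which have 3 copies in Dp16, at the bottom and a dotted line at the ratio of 3 to 2. Of the 37, all points but Cox7a2l lie between -0.64 and -0.10, and their intervals overlap widely.

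Libraries of the same group differed in these genes together. The summed level of the 37 was 4079, 4861, 3791 and 4351 CPM in WT replicates 1 to 4 and 3299, 3873, 2632 and 3781 CPM in Dp16 replicates 1 to 4. WT replicate 2 was the highest of the 8 libraries in 30 of the 37 genes, and Dp16 replicate 3 was the lowest in 33, so 1 library of each group set most of the extremes. Dp16 replicate 2 was the highest Dp16 library in 24 genes and Dp16 replicate 4 in 11. In this summed level the groups overlapped, with Dp16 replicate 2 above WT replicate 3. As an unscaled share of reads in genes, the 37 held 0.376%, 0.477%, 0.3303% and 0.437% in WT and 0.331%, 0.3997%, 0.312% and 0.388% in Dp16. The groups overlapped on this scale as well. Without Dp16 replicate 3 the median log2 fold change was -0.22, 36 of the 37 were negative, and 15 of the 37 lay nearer to 0 by more than 1.5 times. Without WT replicate 2 it was -0.26 and all 37 were negative.

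Scaling by library size alone, an alternative chosen after seeing the data, raised the median of all genes from 0.01 to 0.18. On that scale the 37 had a median of -0.19, with 34 negative, and 4 were lower at an unadjusted p below 0.05 (2.22% of all genes). Their median stood 0.35 below that of all genes with TMM scaling and 0.37 below it with library size alone. The direction of Sdha and Atp5l turned on that scale, and the other members kept theirs.

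**Figure D2:**
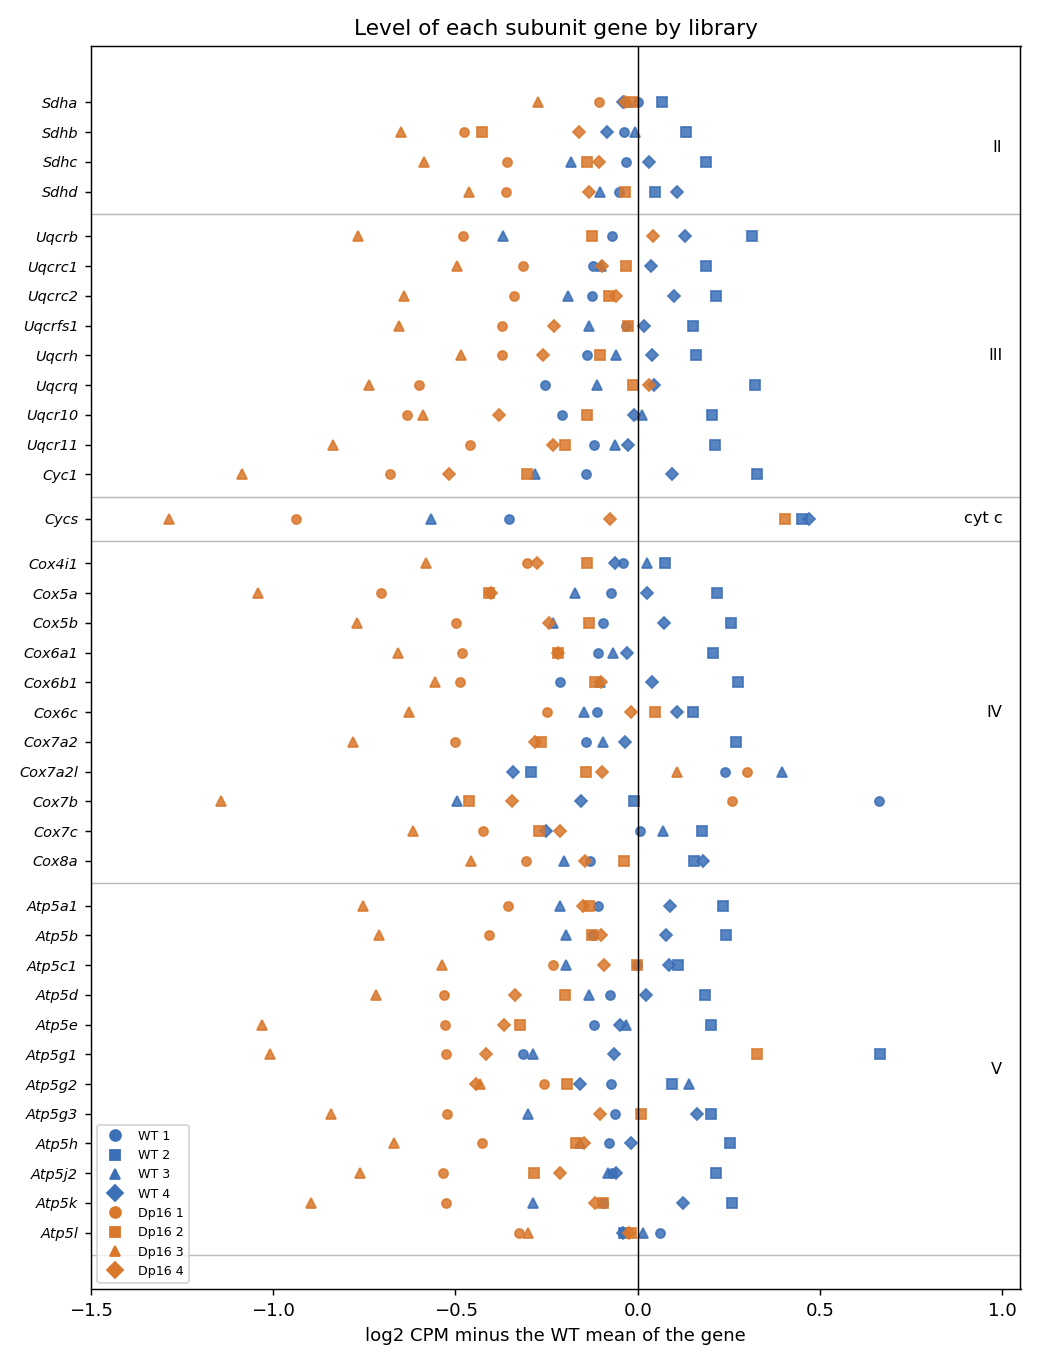
Level of each of the 37 genes (rows, grouped by complex) in each of the 8 libraries, as log2 CPM minus the WT mean of the gene (horizontal axis), with WT in blue, Dp16 in orange and circles, squares, triangles and diamonds for replicates 1 to 4. WT replicate 2 is the rightmost point in 30 genes and Dp16 replicate 3 the leftmost in 33.

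Some promoter motifs were found at a higher share in these genes than over all genes, as a description with no test. RefSeq (GRCm38.p6) held at least 1 window, 250 bases before to 50 after the start, for 29 of the 37 genes. A gene was counted once if any of its windows held a match. GABP is an activator long known for respiratory genes. The core of the motif it binds, CCGGAAG or its reverse complement CTTCCGG, was found in 11 of the 29 genes (37.9%). Of all 27025 genes with a window, 9.93% had it. These were not limited to genes that passed the filter on low counts, as all 37 did. The core of the NRF1 motif, GCATGCGC or its reverse complement GCGCATGC, was found in 8 of the 29 (27.6%), against 3.05% of all genes. Of the 29, 5 held both motifs. CCAAT, bound by NF-Y, stood in 17 (58.6%, against 41.1%), TCAAGGTCA, bound by estrogen-related receptors, in 2 (6.9%, against 0.466%) and AAGATGGCG, bound by YY1, in 1 (3.45%, against 1.64%). Each motif was searched on both strands, and matches to different motifs may overlap. A match is a run of letters and not a measured site. The median share of G and C was 56.7% in the windows of these genes and 52.7% in all windows. The part of that difference in the motif shares was not tested. The 5 stretches below lie upstream of 1 gene of each complex and of Cycs, outside annotated exons. They are written 5′ to 3′ on the strand of the gene. Apart from Cox5a, each was picked as the gene of its list with the smallest edgeR p whose stretch held a match. Cox5a was picked as the complex IV gene with the smallest p. The stretches therefore do not show how often a match occurs. Capitals mark the GABP motif in Sdhd, Uqcr11 and Atp5e and the NRF1 core in Cycs, and Cox5a, with one of the lowest fold changes, has neither in its stretch.
Sdhd, chr9:50603850-50603909, minus strand: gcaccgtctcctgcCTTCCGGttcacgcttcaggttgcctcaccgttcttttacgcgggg
Uqcr11, chr10:80406831-80406950, minus strand: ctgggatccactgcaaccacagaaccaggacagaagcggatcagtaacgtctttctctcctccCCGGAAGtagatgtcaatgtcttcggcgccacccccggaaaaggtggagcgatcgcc
Cycs, chr6:50566570-50566642, minus strand: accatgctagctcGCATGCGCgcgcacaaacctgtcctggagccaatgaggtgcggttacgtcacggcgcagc
Cox5a, chr9:57521112-57521231, plus strand: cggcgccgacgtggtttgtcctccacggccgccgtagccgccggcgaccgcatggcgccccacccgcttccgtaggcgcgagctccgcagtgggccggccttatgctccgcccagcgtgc
Atp5e, chr2:174464106-174464225, minus strand: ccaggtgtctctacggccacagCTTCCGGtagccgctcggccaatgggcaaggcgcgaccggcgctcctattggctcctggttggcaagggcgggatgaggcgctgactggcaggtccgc

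The 4 complex II genes had a median of -0.27 on the log2 scale, and they differed in how far their groups separated. Sdhb (chr4:140961203-140979193, plus strand), which encodes the iron-sulfur subunit, had 73.9, 83.1, 75.4 and 71.5 CPM in WT replicates 1 to 4 and 54.5, 56.4, 48.4 and 67.8 CPM in Dp16 replicates 1 to 4. Every Dp16 library lay below every WT library (log2 fold change -0.42 with an SE of 0.105, edgeR adjusted p = 0.0792), and DESeq2 called it lower (adjusted p = 0.01397). Sdha (chr13:74322254-74350280, minus strand), the flavoprotein subunit that oxidises succinate, had 165, 172, 162 and 160.4 CPM in WT replicates 1 to 4 and 153, 163, 136 and 161 CPM in Dp16 replicates 1 to 4. Dp16 replicates 1 and 3 lay below all WT libraries and replicates 2 and 4 within their range (log2 fold change -0.10 with an SE of 0.0801, edgeR adjusted p = 0.435), with a 95% interval of -0.28 to 0.08.

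Sdhc and Sdhd encode the membrane anchors that bind ubiquinone and heme. Sdhc (chr1:171127165-171150603, minus strand) had 70.5, 82.1, 63.6 and 73.7 CPM in WT replicates 1 to 4 and 56.3, 65.5, 48.1 and 67.1 CPM in Dp16 replicates 1 to 4. Its groups overlapped through Dp16 replicates 2 and 4 and WT replicate 3 (log2 fold change -0.29 with an SE of 0.1204, edgeR adjusted p = 0.182). Sdhd (chr9:50596357-50603812, minus strand), whose upstream stretch is printed above with its GABP motif, had 58.4, 62.6, 56.4 and 65.3 CPM in WT replicates 1 to 4 and 47.2, 59.2, 43.9 and 55.2 CPM in Dp16 replicates 1 to 4, and its groups overlapped as well (log2 fold change -0.24 with an SE of 0.103, edgeR adjusted p = 0.191). Of the 4 genes, 3 were lower at an unadjusted p below 0.05 with edgeR (11.9% of all genes). DESeq2 called 1 lower (4.33% of the genes it tested). Per kilobase of exon in WT, Sdhd had the highest level of the complex, 49.3 ± 3.25 CPM (SD, n = 4), and Sdhc the lowest, 22.3 ± 2.36 CPM. Per kilobase of the principal transcript, a measure added after seeing the data, the highest was Sdhb instead.

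Complex III had a median of -0.31, and all 9 genes were negative. Cyc1 (chr15:76343523-76346260, plus strand), cytochrome c1, which passes electrons on to cytochrome c, had 48.4, 67.1, 43.95 and 57.02 CPM in WT replicates 1 to 4 and 33.3, 43.2, 25.2 and 37.3 CPM in Dp16 replicates 1 to 4. Every Dp16 library lay below every WT library, and this was the lowest log2 fold change of the 37 (log2 fold change -0.64 with an SE of 0.178, edgeR adjusted p = 0.0931). Uqcr10 (chr11:4701973-4704342, minus strand), a small subunit of the complex, had 47.3, 62.9, 55.02 and 54.2 CPM in WT replicates 1 to 4 and 35.2, 49.5, 36.3 and 41.9 CPM in Dp16 replicates 1 to 4. Its Dp16 replicate 2 lay above WT replicate 1, so the groups overlapped (log2 fold change -0.43 with an SE of 0.126, edgeR adjusted p = 0.103). DESeq2 called Uqcr10 and Cyc1 lower (4.33% of the genes it tested). Uqcr11, another small subunit, had no overlap between groups, with 59.8, 75.2, 62.2 and 63.8 CPM in WT replicates 1 to 4 and 47.2, 56.6, 36.4 and 55.4 CPM in Dp16 replicates 1 to 4 (log2 fold change -0.42 with an SE of 0.1401, edgeR adjusted p = 0.129).

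Uqcrfs1 (chr13:30540308-30545362, minus strand), the Rieske iron-sulfur protein, had 73.04, 82.95, 68.1 and 75.7 CPM in WT replicates 1 to 4 and 57.8, 73.4, 47.5 and 63.8 CPM in Dp16 replicates 1 to 4. Its groups overlapped through Dp16 replicate 2 (log2 fold change -0.31 with an SE of 0.128, edgeR adjusted p = 0.184). Uqcrc1 (chr9:108936633-108949623, plus strand), a core subunit, had 75.8, 94, 77 and 84.7 CPM in WT replicates 1 to 4 and 66.4, 80.7, 58.6 and 77.1 CPM in Dp16 replicates 1 to 4, with 2 Dp16 libraries above the lowest WT library and the fold change nearest to 0 in the complex (log2 fold change -0.23 with an SE of 0.116, edgeR adjusted p = 0.252). Uqcrh (chr4:116066965-116075071, minus strand), the hinge subunit, had 116, 143, 123 and 132 CPM in WT replicates 1 to 4 and 98.9, 119, 91.5 and 107 CPM in Dp16 replicates 1 to 4, the highest level per kilobase of exon in complex III at 104 ± 9.39 CPM in WT (SD, n = 4). Only its Dp16 replicate 2 passed above the lowest WT library (log2 fold change -0.30 with an SE of 0.102, edgeR adjusted p = 0.131). The other 3 genes, Uqcrb, Uqcrc2 and Uqcrq, had log2 fold changes of -0.32, -0.27 and -0.31. In all, 5 of the 9 were lower at an unadjusted p below 0.05 with edgeR (11.9% of all genes).

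Cycs (chr6:50562563-50566538, minus strand), the carrier between complexes III and IV and also a trigger of apoptosis once released, had the largest standard error of the 37. It had 35, 61.03, 30.2 and 61.9 CPM in WT replicates 1 to 4 and 23.3, 59.2, 18.3 and 42.4 CPM in Dp16 replicates 1 to 4. In each group 2 libraries were high and 2 were low, and the groups overlapped (log2 fold change -0.39 with an SE of 0.379, edgeR adjusted p = 0.539). Leaving out 1 library moved its log2 fold change between -0.18 (without Dp16 replicate 3) and -0.75 (without Dp16 replicate 2). Its interval of -1.24 to 0.46 includes both no difference and a difference larger than that of any other member. The principal Cycs transcript shares near-identical stretches with 3 other genes, among them Gm10053, so its reads can be split or lost. Cox7b, a small subunit of complex IV named here after its values were seen, had the next widest spread, with 314, 197, 141 and 178 CPM in WT replicates 1 to 4 and 238, 144, 89.8 and 156 CPM in Dp16 replicates 1 to 4 (log2 fold change -0.40 with an SE of 0.3095, edgeR adjusted p = 0.438). WT replicate 1 was its highest library and Dp16 replicate 3 its lowest, and its log2 fold change was -0.14 without WT replicate 1, -0.67 without Dp16 replicate 1 and -0.21 without Dp16 replicate 3.

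In complex IV the median was -0.38, with 10 of 11 genes negative. Without Dp16 replicate 3 it was -0.24, and which complex had the lowest median changed with the library left out. Cox5a (chr9:57521274-57532426, plus strand), a subunit on the matrix side, had 65.4, 80.02, 61.02 and 70.04 CPM in WT replicates 1 to 4 and 42.2, 51.8, 33.4 and 52.04 CPM in Dp16 replicates 1 to 4. The highest Dp16 library was below the lowest WT library (log2 fold change -0.62 with an SE of 0.148, edgeR adjusted p = 0.0732), and it was the only member called by both DESeq2 (adjusted p = 0.005396) and limma-voom (adjusted p = 0.0455). Cox4i1 (chr8:120668222-120674207, plus strand), the ubiquitous form of the subunit through which ATP slows the enzyme, had 163, 177, 171 and 161 CPM in WT replicates 1 to 4 and 136, 152, 112 and 138 CPM in Dp16 replicates 1 to 4, with no overlap between groups (log2 fold change -0.32 with an SE of 0.0993, edgeR adjusted p = 0.113). Cox7a2 (chr9:79755361-79759878, minus strand), the form of subunit VIIa used in most tissues, had 113, 151, 117 and 122 CPM in WT replicates 1 to 4 and 88.1, 104, 72.7 and 103 CPM in Dp16 replicates 1 to 4. Its Dp16 libraries all lay below the WT libraries (log2 fold change -0.45 with an SE of 0.135, edgeR adjusted p = 0.105).

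Cox7a2l (chr17:83501918-83517330, minus strand), which takes part in the assembly of supercomplexes, had the only positive log2 fold change of the 37. Its levels were 44.8, 31.02, 50.03 and 29.96 CPM in WT replicates 1 to 4 and 46.7, 34.4, 40.9 and 35.5 CPM in Dp16 replicates 1 to 4. WT replicates 2 and 4, high for most members, were among its lowest libraries, and the groups overlapped fully (log2 fold change 0.02 with an SE of 0.178, edgeR adjusted p = 0.965). The sign turned without WT replicate 2, WT replicate 4 or Dp16 replicate 1. Cox6b1 (chr7:30616861-30626151, minus strand), a subunit facing the intermembrane space, had 135, 189, 145 and 160.3 CPM in WT replicates 1 to 4 and 111, 144, 106 and 145 CPM in Dp16 replicates 1 to 4 and overlapping groups (log2 fold change -0.31 with an SE of 0.142, edgeR adjusted p = 0.213), and its 222 ± 33.3 CPM per kilobase of exon in WT (SD, n = 4) was the highest of complex IV. Cox5b (-0.40), Cox6a1 (-0.39), Cox7c (-0.38), Cox8a (-0.24) and Cox6c (-0.20) had negative log2 fold changes too. At an unadjusted p below 0.05 edgeR put 6 of the 11 lower (11.9% of all genes). DESeq2 called 5 lower (4.33% of the genes it tested): Cox4i1, Cox5a, Cox6a1, Cox7a2 and Cox7c.

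**Figure D3:**
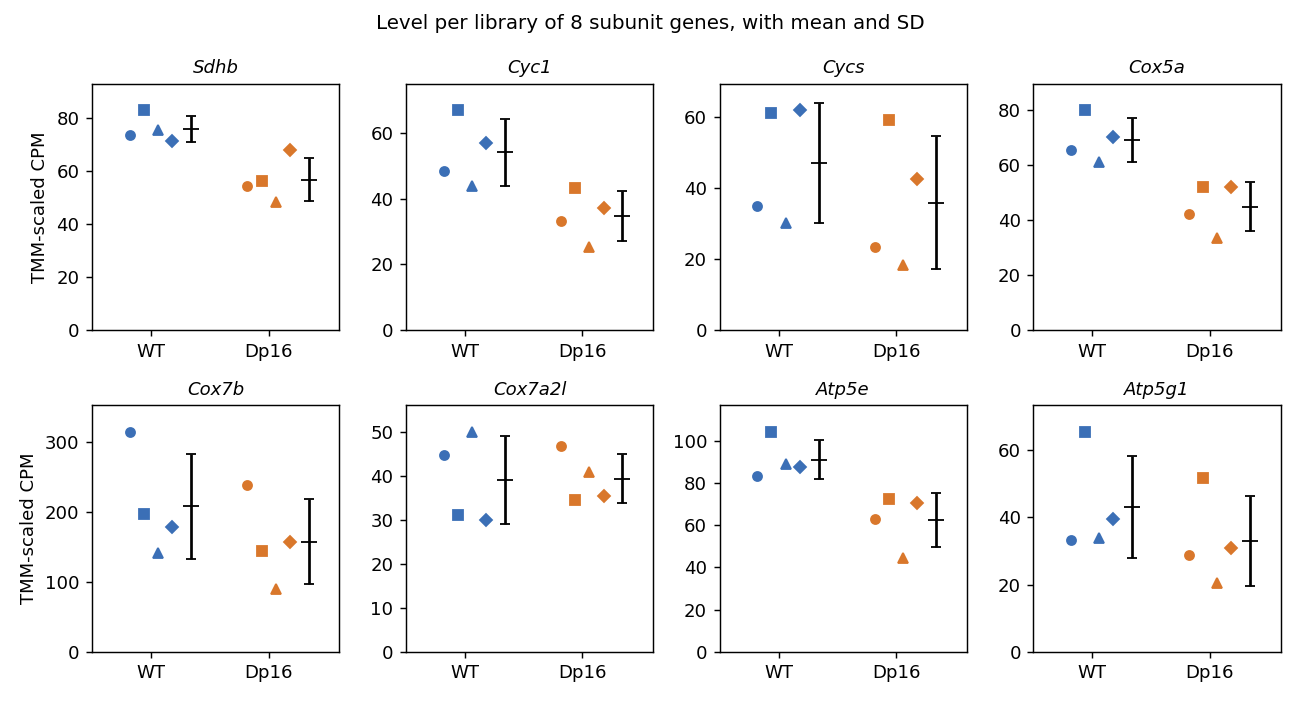
Level of Sdhb, Cyc1, Cycs, Cox5a, Cox7b, Cox7a2l, Atp5e and Atp5g1 in each library (TMM-scaled CPM, vertical axes from 0), with WT in blue, Dp16 in orange, circles, squares, triangles and diamonds for replicates 1 to 4, and bars for the mean and SD of 4 libraries. Sdhb, Cyc1, Cox5a and Atp5e show no overlap between groups, while the other 4 overlap.

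Complex V had a median of -0.34, and all 12 genes were negative. The catalytic head is formed by the alpha and beta subunits, of which Atp5b (chr10:128083273-128090391, plus strand) had 675, 869, 642 and 776 CPM in WT replicates 1 to 4 and 554, 674, 449.5 and 685 CPM in Dp16 replicates 1 to 4. Atp5a1 (chr18:77773729-77782869, plus strand) had 421, 534, 391 and 482 CPM in WT replicates 1 to 4 and 355, 414, 269 and 409 CPM in Dp16 replicates 1 to 4. In both, Dp16 replicates 2 and 4 lay above the lowest WT library (log2 fold change -0.34 with an SE of 0.157, edgeR adjusted p = 0.22 for Atp5a1; log2 fold change -0.33 with an SE of 0.1601, edgeR adjusted p = 0.24 for Atp5b). Atp5b had the highest level per kilobase of exon of complex V, 175 ± 24.3 CPM in WT (SD, n = 4).

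The central stalk turns inside this head. Atp5d (chr10:80138632-80145818, plus strand), its delta subunit, had 60.6, 72.6, 58.2 and 64.9 CPM in WT replicates 1 to 4 and 44.2, 55.6, 38.8 and 50.6 CPM in Dp16 replicates 1 to 4. Atp5e (chr2:174461072-174464105, minus strand), its epsilon subunit, whose upstream stretch with a GABP motif is printed above, had 83.7, 105, 89.02 and 87.95 CPM in WT replicates 1 to 4 and 63.1, 72.8, 44.5 and 70.5 CPM in Dp16 replicates 1 to 4. In both genes every Dp16 library lay below every WT library (log2 fold change -0.44 with an SE of 0.119, edgeR adjusted p = 0.0909 for Atp5d; log2 fold change -0.54 with an SE of 0.149, edgeR adjusted p = 0.0917 for Atp5e). The gamma subunit of the same stalk, Atp5c1, had -0.21 (edgeR adjusted p = 0.3196), nearer to 0. DESeq2 called Atp5d, Atp5e and Atp5j2, a subunit of the membrane part, lower in complex V (4.33% of the genes it tested).

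Atp5g1, Atp5g2 and Atp5g3 encode the same mature c subunit of the membrane rotor. Per kilobase of exon in WT, Atp5g3 was the most abundant at 60.5 ± 9.39 CPM, ahead of Atp5g1 at 8.76 ± 3.11 CPM and Atp5g2 at 4.11 ± 0.397 CPM (SD, n = 4 each). Per kilobase of the principal transcript Atp5g3 had 182 CPM, Atp5g2 9.42 CPM and Atp5g1 9.13 CPM, so the order of Atp5g1 and Atp5g2 rests on the length used. Near-identical stretches shared with 2 pseudogenes cover 88.2% of the Atp5g2 transcript, and its level is uncertain. Atp5g1 (chr11:96068852-96075670, minus strand) had 33.2, 65.5, 33.8 and 39.5 CPM in WT replicates 1 to 4 and 28.7, 51.8, 20.5 and 30.9 CPM in Dp16 replicates 1 to 4, and WT replicate 2 stood far above the other WT libraries (log2 fold change -0.38 with an SE of 0.3, edgeR adjusted p = 0.446). Without that library its log2 fold change was -0.11, and without Dp16 replicate 2 it was -0.69. Atp5g2 (chr15:102662864-102672352, minus strand) had 6.51, 7.32, 7.56 and 6.14 CPM in WT replicates 1 to 4 and 5.74, 5.99, 5.08 and 5.04 CPM in Dp16 replicates 1 to 4, with no overlap between groups (log2 fold change -0.33 with an SE of 0.109, edgeR adjusted p = 0.122). Atp5g3 (chr2:73908447-73911326, minus strand) had 125, 150.2, 106 and 146 CPM in WT replicates 1 to 4 and 90.9, 131, 72.9 and 121 CPM in Dp16 replicates 1 to 4 and overlapping groups (log2 fold change -0.34 with an SE of 0.189, edgeR adjusted p = 0.292).

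Of the rest of complex V, Atp5l (chr9:44912557-44920742, minus strand), the g subunit that helps ATP synthases pair, had 12.1, 11.3, 11.7 and 11.2 CPM in WT replicates 1 to 4 and 9.21, 11.4, 9.38 and 11.4 CPM in Dp16 replicates 1 to 4. Dp16 replicates 2 and 4 were level with WT (log2 fold change -0.16 with an SE of 0.0974, edgeR adjusted p = 0.326). Its WT level was the lowest of complex V per kilobase of exon, 1.79 ± 0.06097 CPM over 6443 bases, and 21.2 CPM per kilobase of its principal transcript of 544 bases, against a median of 109.7 CPM over the 12 genes on that measure. Atp5h, of the peripheral stalk, had -0.35 (edgeR adjusted p = 0.159), Atp5k, of the membrane part, -0.39 (edgeR adjusted p = 0.232) and Atp5j2 -0.44 (edgeR adjusted p = 0.103). Over the 12 genes, 5 were lower at an unadjusted p below 0.05 with edgeR (11.9% of all genes).

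**Figure D4:**
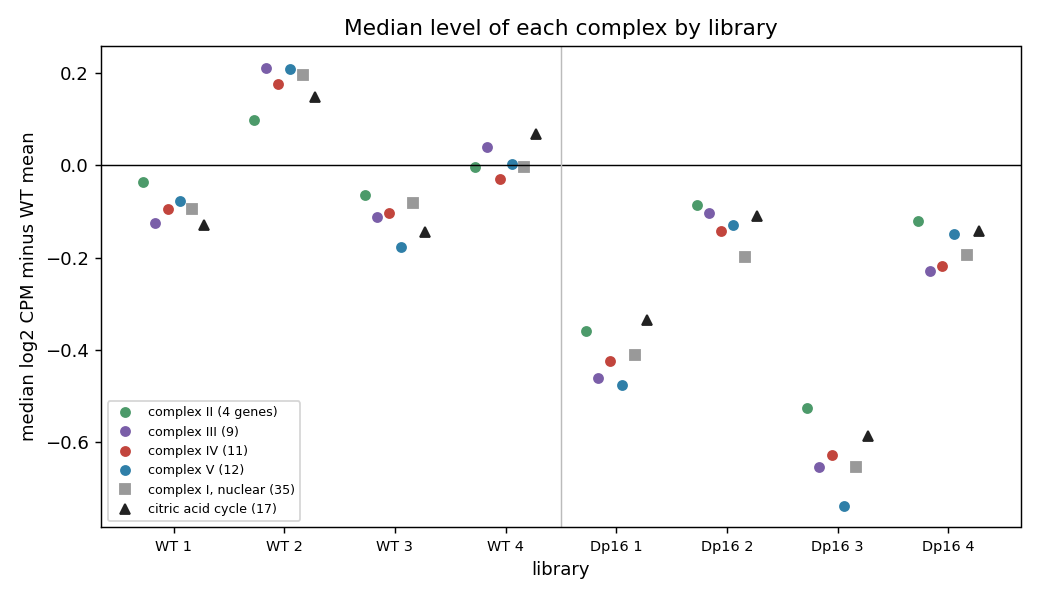
Median over the genes of each complex of log2 CPM minus the WT mean (vertical axis), by library, with nuclear complex I genes and citric acid cycle genes for comparison. The medians of the lists vary together from library to library, from Dp16 replicate 3 (-0.65 for complex III and -0.74 for complex V) to WT replicate 2 (0.21 for both).

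ATP synthase genes also lie in the duplicated segment, Atp5j (chr16:84827866-84835625, minus strand), of the peripheral stalk, and Atp5o (chr16:91925214-91931687, minus strand), which joins that stalk to the head. Atp5j had 104, 118, 98.8 and 108 CPM in WT replicates 1 to 4 and 133, 157, 107 and 175 CPM in Dp16 replicates 1 to 4 (log2 fold change 0.41 with an SE of 0.143, edgeR adjusted p = 0.134). Atp5o had 55.5, 71.9, 54.3 and 63.2 CPM in WT replicates 1 to 4 and 64.2, 77.4, 51.4 and 76.8 CPM in Dp16 replicates 1 to 4 (log2 fold change 0.14 with an SE of 0.144, edgeR adjusted p = 0.566). Neither passed the test, and the groups overlapped in both genes. The annotation holds 2 Atp5o genes, and the values are those of the one with reads. Set against the median of the 12 complex V genes in the same library, the groups did not overlap. Each value is log2 CPM minus the WT mean of the gene, less the median of that quantity over the 12 genes. For Atp5j it was 0.01 ± 0.0536 in WT and 0.77 ± 0.0748 in Dp16 (n = 4 in either group, with SD). For Atp5o it was 0.01 ± 0.0473 in WT and 0.50 ± 0.03501 in Dp16. Those differences of 0.75 and 0.49 lie on either side of 0.58, the log2 of 3 copies over 2. The reference was itself lower in Dp16 (median log2 fold change of the 12 genes -0.34), which raises both differences. Without it, the log2 fold changes of 0.41 for Atp5j and 0.14 for Atp5o both lie below 0.58. The 2 differences describe levels relative to the other subunits, and Atp5j also shares 397 exon bases with Gabpa on the opposite strand. The 2 Atp5o genes share 243 exon bases with each other on the same strand, and each also overlaps further genes. The part of these overlaps in the counts was not tested.

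**Figure D5:**
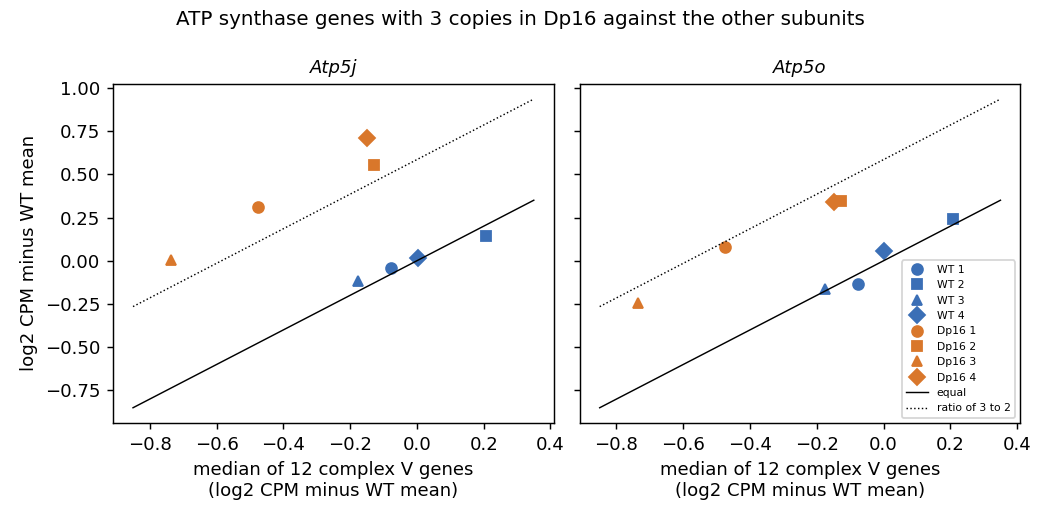
Log2 CPM minus the WT mean of Atp5j and Atp5o (vertical axis) against the median of the same quantity over the 12 complex V genes (horizontal axis), 1 point per library, with lines for equal change (solid) and for a ratio of 3 to 2 (dotted). WT libraries lie near the solid line, and Dp16 libraries lie above the dotted line for Atp5j and just under it for Atp5o.

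Other genes of the pathway had negative medians as well. For the counts that follow, 11.9% of all genes were lower and 12.7% higher at an unadjusted p below 0.05 with edgeR. DESeq2 called 4.33% of the genes it tested lower and 5.82% higher, and limma-voom 0.77% and 1.28%. The 5 further complex V genes had a median of -0.38. Among them edgeR called 0 of 5 at an adjusted p below 0.05, with 3 lower and 0 higher at an unadjusted p below 0.05. DESeq2 called 0 lower and 0 higher, and limma-voom called 0 lower and 0 higher. The smallest p belonged to Atp5mpl (-0.38) and Atpif1 (-0.38), the inhibitor of ATP hydrolysis. All 35 nuclear complex I genes were negative, with a median of -0.35. Among them edgeR called 0 of 35 at an adjusted p below 0.05, with 30 lower and 0 higher at an unadjusted p below 0.05. DESeq2 called 11 lower and 0 higher, and limma-voom called 1 lower and 0 higher. The 2 with the smallest p, Ndufa6 (-0.35, edgeR adjusted p = 0.0704) and Ndufs7 (-0.43, edgeR adjusted p = 0.0766), are subunits of NADH dehydrogenase. The 17 citric acid cycle genes were all negative too, with a median of -0.26. Among them edgeR called 0 of 17 at an adjusted p below 0.05, with 8 lower and 0 higher at an unadjusted p below 0.05. DESeq2 called 1 lower and 0 higher, and limma-voom called 0 lower and 0 higher. Idh3b (-0.33) and Fh1 (-0.33), isocitrate dehydrogenase and fumarase genes, had the smallest p.

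Subunit genes of the mitochondrial DNA had values of either sign. Of 13, 9 were tested, with a median of -0.18. Among them edgeR called 0 of 9 at an adjusted p below 0.05, with 3 lower and 1 higher at an unadjusted p below 0.05. DESeq2 called 1 lower and 0 higher, and limma-voom called 1 lower and 0 higher. The smallest p belonged to mt-Nd4 (-0.42, edgeR adjusted p = 0.07096) and mt-Nd6 (0.33, edgeR adjusted p = 0.1097), which lie on opposite strands of the mitochondrial genome. Assembly factors had medians of -0.24 for complex II, -0.38 for III, -0.23 for IV and -0.20 for V. For complex III edgeR called 0 of 6 at an adjusted p below 0.05, with 3 lower and 0 higher at an unadjusted p below 0.05. DESeq2 called 0 lower and 0 higher, and limma-voom called 0 lower and 0 higher. Uqcc2 (-0.46) and Bcs1l (-0.43), which inserts the Rieske protein, had the smallest p. For complex IV edgeR called 0 of 22 at an adjusted p below 0.05, with 7 lower and 0 higher at an unadjusted p below 0.05. DESeq2 called 0 lower and 0 higher, and limma-voom called 0 lower and 0 higher. Ndufa4 (-0.44) and Coa7 (-0.31) had the smallest p in that list, although Ndufa4 encodes a subunit of complex IV and not an assembly factor. For complexes II and V, edgeR, DESeq2 and limma-voom called 0 of 4 and 0 of 3, with 1 and 0 lower at an unadjusted p below 0.05 with edgeR. Over all genes, 11.9% were lower and 12.7% higher at an unadjusted p below 0.05 with edgeR. DESeq2 called 4.33% of the genes it tested lower and 5.82% higher, and limma-voom 0.77% and 1.28%.

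Among 12 regulators of mitochondrial biogenesis, edgeR called 1 gene, Gabpa, higher in Dp16, while DESeq2 and limma-voom each called 2 higher (Gabpa and Nrip1) and 1 lower (Pprc1). Over all genes, edgeR called 0.47% higher, DESeq2 5.82% higher and 4.33% lower, and limma-voom 1.28% higher and 0.77% lower. Gabpa, which encodes a subunit of the activator GABP, lies in the duplication. Gabpa had 35.96 ± 1.96 CPM in WT (SD, n = 4) and 55.3 ± 4.84 CPM in Dp16 (SD, n = 4), with a log2 fold change 0.62 with an SE of 0.0804, edgeR adjusted p = 0.0265. Nrip1 (chr16:76287400-76373827, minus strand), a corepressor of oxidative genes that is also in the duplication, had 0.42 (edgeR adjusted p = 0.0544). Pprc1, a relative of the coactivator PGC-1 alpha, had -0.93 (edgeR adjusted p = 0.0577) and Esrra, an estrogen-related receptor, -0.42 (edgeR adjusted p = 0.117). PGC-1 alpha itself (Ppargc1a, 0.20), Nrf1 (-0.03) and Tfam (0.08), which packages mitochondrial DNA, had edgeR adjusted p values of 0.479, 0.873 and 0.554. Isoforms that replace members in other tissues were low: of 8, 4 were tested, with log2 fold changes of 0.05 for the lung form Cox4i2, -0.34 for the heart and muscle form Cox7a1, 0.46 for the muscle form Cox8b and 1.02 for the testis form Cox6b2. With edgeR, DESeq2 and limma-voom 0 of these 4 were called, with 1 higher at an unadjusted p below 0.05 with edgeR (12.7% of all genes). Cox6a2, the heart and muscle form of Cox6a1, had at most 1 read in a library.

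Cell type markers were summed for each library, and their part in the results was not tested. The 17 lymphocyte markers summed to 39.5 to 54.9 CPM in WT and 55.5 to 231 CPM in Dp16, with a median log2 fold change of 2.15. Among them edgeR called 0 of 17 at an adjusted p below 0.05. At an unadjusted p below 0.05 edgeR put 0 lower and 17 higher (11.9% and 12.7% of all genes). DESeq2 called 0 lower and 17 higher (4.33% and 5.82% of the genes it tested), and limma-voom called 0 lower and 3 higher (0.77% and 1.28%). By library their sum was 154, 55.5, 231 and 115 CPM in Dp16 replicates 1 to 4, so it was highest in replicate 3, where the 37 genes were lowest, and lowest in replicate 2. The 12 granular duct markers summed to 113160.0 to 191795 CPM in WT and 66905 to 137971 CPM in Dp16 (median -0.52). Of these, edgeR called 1 lower (0.155% of all genes), the kallikrein Klk1 (-0.70, edgeR adjusted p = 0.0358). The 12 acinar markers summed to 31571 to 40876 CPM in WT and 24365 to 34543 CPM in Dp16 (median -0.23 over 11 tested, with Tesc at -0.61 and Aqp5 at -0.66). Adipocyte markers summed to 47.2 to 74.9 CPM in WT and 32.6 to 65.3 CPM in Dp16, myeloid markers to 312 to 369.6 CPM in WT and 289 to 510.3 CPM in Dp16 and skeletal muscle markers to 1.48 to 2.12 CPM in WT and 1.11 to 1.31 CPM in Dp16. In no list was a gene without reads in every library. Markers of other ducts and of stroma had medians of 0.01 and 0.02. In Dp16 replicate 3 the granular duct (66905 CPM) and acinar (24365 CPM) sums were the lowest of all libraries. Its myeloid sum (510.3 CPM), like its lymphocyte sum, was the highest. Its sums of adipocyte, skeletal muscle, other duct and stroma markers were neither the highest nor the lowest. Among WT libraries the order was another. The granular duct sum was highest in WT replicate 3 (191795 CPM), where the 37 genes had their lowest WT sum. The acinar sum was lowest in WT replicate 2 (31571 CPM), where the 37 genes had their highest. The lymphocyte sum was highest in WT replicate 1 (54.9 CPM) and lowest in WT replicate 4 (39.5 CPM).

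Reads of some members can be shared with other genes. For 9 of the 37 the principal transcript holds a stretch of at least 100 bases that is at least 98% identical to another gene, mostly a pseudogene, and for 9 the exons overlap another gene. The median log2 fold change was -0.38 for those 9 sharing a stretch and -0.32 for the other 28. Uqcrb, Cox7c, Atp5g2, Atp5h and Atp5l share the most of their length.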

How the data were processed

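Submandibular gland RNA from 4 WT and 4 Dp16 libraries was prepared with a stranded total RNA kit after ribosomal RNA depletion, per the labels' protocols. The authors deposited whole-number read counts per Ensembl gene, 1 table per library. The tools STAR, HTSeq, FastQC and DESeq2 and the build GRCm38 are listed in the submitters' processing notes. Of their versions, the annotation release and the strand setting nothing is stated (not given in the sources used here). Without a known strand setting, overlapping antisense genes cannot be told apart. The 5 rows that name no gene held 58.1% to 65.4% of a library's reads and were left out.

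Groups came from the titles and genotype labels. Counts were tested in R 4.3.3 with edgeR 4.0.16 (default expression filter, TMM scaling, quasi-likelihood F-test of genotype over the 8 libraries, two-sided, Benjamini-Hochberg adjustment over 19358 genes), which was checked on simulated counts. Calls use an adjusted p below 0.05. DESeq2 1.42.0, limma-voom 3.58.1, other scalings and filters, a replicate block and leaving out each library were alternatives. At the depth of these libraries, counting error is small beside the spread between libraries. Levels per kilobase divide CPM by exon length (GENCODE M21). Promoter windows are from RefSeq (GRCm38.p6).

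The 37 genes and all other lists were chosen with earlier results of these data known. Values per library are given for 12 subunits picked by role, for the 2 smallest p-values and the highest and lowest fold change in each complex, and for the highest level per length in each complex. Uqcr11, Cox7b, Pprc1, Esrra and Cox6b2 were added after their values were seen. From other pathway lists the 2 genes with the smallest p are named. For the assembly factors of complexes II and V no gene is named.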

Additional observations from a re-analysis of the deposited data

Results flagged for a closer look

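Atp5j2, a subunit of the membrane part of ATP synthase, stood out in WT replicate 2 at 119 CPM, while the other 3 WT libraries lay between 96.96 and 98.5 CPM. The gap to the next library was 0.932 of the whole range of the group, above Dixon's 95% limit for 4 samples. With 37 genes in 2 groups, 74 groups were examined and this was the only 1 past the limit. Chance puts about 1 in 20 such groups past it. WT replicate 2 was also the highest library in most of the other members.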

How the results depend on the processing

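The direction of the members' median and of the median of each complex was the same under every alternative run. Results past the threshold or not depended on the tool. Against 121 genes called in all with edgeR, DESeq2 called 1991, limma-voom 396, edgeR with no expression filter 223, with library size alone as the scale 328 and at an adjusted p below 0.10 1308. For the 37 members the counts were 0 with edgeR, 11 with DESeq2, 1 with limma-voom and 5 at an adjusted p below 0.10. Leaving out 1 library at a time gave 0 to 446 calls over all genes and 0 to 1 among the members, the latter Uqcr10 without Dp16 replicate 2. Omitting WT replicate 1, 2, 3 or 4 left 63, 0, 4 and 11 calls over all genes, and omitting Dp16 replicate 1, 2, 3 or 4 left 0, 446, 56 and 14. Fewer libraries enter these fits, and the cause of the rise to 446 was not tested. With library size alone, complex II had a median of -0.11, Sdha 0.058 and Atp5l 0.0055. Cox7a2l ranged from -0.093 to 0.15 as libraries were left out and was negative without WT replicate 2 (-0.080), WT replicate 4 (-0.093) or Dp16 replicate 1 (-0.077).

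A replicate block gave 776 calls over all genes and 8 among the members, each lower in Dp16 (2.15% of all genes), and put 34 of the 37 at an unadjusted p below 0.05 in that direction (15.8% of all genes). The labels do not say that the replicate numbers pair libraries, and the WT library titled 4 carries another number in its library name. Correlations of same-numbered libraries' deviations from their group means were 0.191, 0.129, 0.0777 and 0.105 for numbers 1 to 4, and WT replicates 3 and 4 correlated better with another number than with their own. All 4 are positive and 3 are above 0.1, so whether the numbers mark a shared source is not settled by these values.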
